A study of Mus musculus with 6 samples.

Results

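The genes of the apical-basal polarity machinery were examined in whole embryonic lungs that did or did not carry *Yap* in their epithelium. The 10 genes were *Pard3*, *Pard6a*, *Pard6b*, *Pard6g*, *Prkci* and *Prkcz* of the PAR complex, *Crb3* and *Mpp5* of the Crumbs complex, and *Llgl1* and *Llgl2*, which act with the Scribble group. They were found by symbol in a table of 24402 loci. Each of the 10 had 1 locus, and no locus of theirs carried a second gene symbol. RNA came from lungs at 12.5 *dpc* in the C57BL/6 strain, with 3 wild type control libraries and 3 libraries of genotype Yap-flox/flox; Shh-Cre/+, called *Yap* mutants. Cre made from the *Shh* locus removes floxed *Yap* in the lung epithelium, whereas the mesenchyme keeps it. The mutants also carry the Cre allele in place of 1 copy of *Shh* and the controls carry no Cre, so that the effects of the Cre allele and of the loss of *Yap* cannot be told apart. The number of embryos behind each library is not given in the sources used here.

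Epithelial cells have an apical surface facing the lumen and a basolateral surface facing neighbouring cells and the basement membrane. In textbook accounts, PAR3, PAR6 and atypical protein kinase C, together with the small GTPase CDC42, mark the apical side and the cell junctions, Crumbs proteins with their scaffold PALS1 (encoded by *Mpp5*) build the apical membrane, and LGL and Scribble proteins hold the basolateral side. The kinase phosphorylates LGL and keeps it away from the apical membrane, so the groups exclude each other. In the lung bud this machinery keeps a single-layered tube with an open lumen, and it also feeds into the Hippo pathway, of which YAP is the effector. The paper stained *Yap* mutant lungs, at stages including that of the RNA, for atypical protein kinase C and other polarity markers. It reports that these were properly distributed and proposes that epithelial polarity stays intact without YAP. The values below are RNA levels, and polarity itself was not tested here.

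For every locus, the authors' deposited table gave 1 FPKM value (sequenced fragments scaled by transcript length and library size) for the control group and 1 for the *Yap* mutant group. FPKM is scaled by transcript length, which allows levels of different genes to be compared. Values for single libraries were not used here, so the spread between libraries and the depth of each library are unknown, and no statistical test could be made. Each difference below is therefore a difference between pooled values, given as a fold or percent of the deposited values, or as a log2 ratio of mutant over control after adding 0.1 FPKM to both values. Counts past a bound use the log2 ratio. The bound used for counts is a log2 ratio of 0.32 in either direction, which is 20% lower or 25% higher in mutant lungs, at loci averaging 1 FPKM or more, and all 10 genes passed that filter on level. Over the 12716 loci that passed it, the median absolute log2 ratio was 0.11.

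*Yap1* itself (chromosome 9, 7932001 to 8004596) had 76.1 FPKM in controls and 65.6 FPKM in mutants. In the epithelium list, made up of 35 markers such as *Epcam* and *Nkx2-1*, none (0) was listed at 0 in either group. The heart muscle and neural lists also held no marker at 0, so this does not check the tissue. The summed level of the epithelium list was 738.5 FPKM in controls and 568.4 FPKM in mutants. Heart muscle markers summed to 62.3 and 585.5 FPKM over 9 loci, and 4 Y-linked genes (*Ddx3y*, *Eif2s3y*, *Kdm5d* and *Uty*) lay at or below 0.0163 FPKM in controls and between 4.61 and 16.5 FPKM in mutants. The part of heart tissue or of embryo sex in the values below was not tested.

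As deposited, all 10 polarity genes had a lower value in *Yap* mutant than in control lungs, and with each group set to the same total over all loci, 9 of the 10 did. The sizes ran from a log2 ratio of -0.03 for *Mpp5* to -0.75 for *Crb3*. The median log2 ratio of the 10 was -0.25, beside -0.01 over all 12716 loci, of which 51.8% were lower. With equal totals the median of the 10 was -0.21 and that of all loci 0.04, and 39.9% of all loci were lower. At least 20% lower were 4 of the 10, *Crb3*, *Llgl2*, *Prkci* and *Pard6b*, against 6.80% of all loci. Under a stricter bound of 1.5-fold, *Crb3* was the 1 gene left, against 3.30% of all loci. None (0) was higher past either bound, where 9.63% and 4.44% of all loci lay. The gene that changed direction with equal totals was *Mpp5*, at a log2 ratio of 0.02, and the same 4 genes were at least 20% lower on that scale, with log2 ratios of -0.36 or less.

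**Figure D1:**
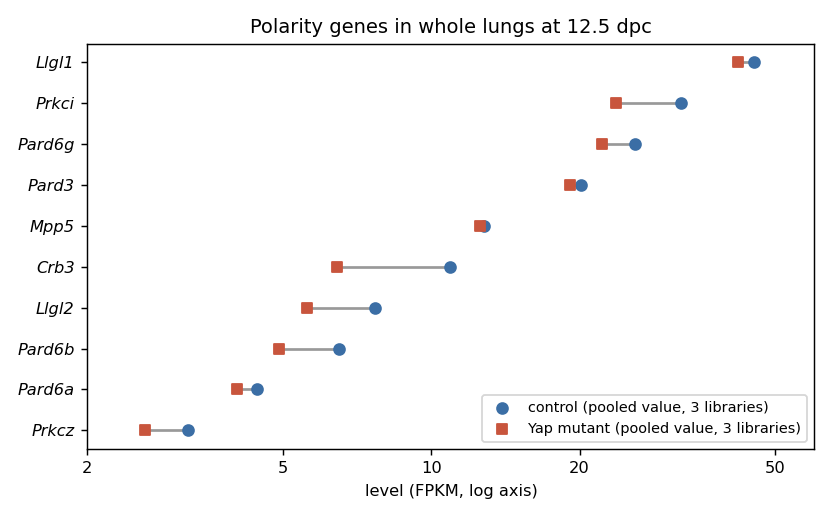
Levels of the 10 polarity genes in control lungs (blue circles) and *Yap* mutant lungs (red squares), in FPKM on a log axis, with 1 pooled value per group and therefore no error bars. On the deposited scale every square lies to the left of its circle (with equal totals *Mpp5* would not), and the gap is widest for *Crb3* (10.9 and 6.44 FPKM) and narrowest for *Mpp5* (12.8 and 12.6 FPKM).

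The 2 genes of the Crumbs complex differed in the size of their difference. *Crb3* (XLOC_009117, chromosome 17, 57062277 to 57078510) encodes a small transmembrane Crumbs protein of epithelial cells. Its level was 10.9 FPKM in controls and 6.44 FPKM in mutants, 1.69-fold lower, with a log2 ratio of -0.75. Of all loci past the filter, 2.28% had a ratio as low or lower. Among loci of a similar level, with a mean from 5 to under 20 FPKM, 5.60% were at least 20% lower. The deposited locus runs 12592 bases past the end of *Crb3* over *Dennd1c*, which lies on the opposite strand and shares 14 exonic bases with it. *Dennd1c* has its own value in the table, 0.481 FPKM in controls and 0.282 FPKM in mutants, far below that of *Crb3*. Whether reads were counted by strand is not given in the sources used here.

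*Mpp5* (XLOC_004463, chromosome 12, 78748848 to 78840832) encodes PALS1, the scaffold that ties Crumbs to its other partners and to PAR6. It had 12.8 FPKM in controls and 12.6 FPKM in mutants, a log2 ratio of -0.03, and 44.4% of loci had a ratio as low or lower. In control lungs the transcripts of the scaffold and of the transmembrane protein were at close levels, with a ratio of *Mpp5* to *Crb3* of 1.18. In mutant lungs this ratio was 1.95.

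The kinases of the PAR complex are the atypical protein kinases C, which are not activated by calcium or diacylglycerol. *Prkci* (XLOC_013288, chromosome 3, 30995771 to 31052740) encodes the iota/lambda isoform and was the more abundant of the pair. Its level was 32.1 FPKM in controls and 23.7 FPKM in mutants, 1.35-fold lower. *Prkcz* (XLOC_015753, chromosome 4, 155260120 to 155361642), which encodes the zeta isoform, had the lowest level of all 10 genes, 3.20 and 2.62 FPKM. It was 18.2% lower, just short of the bound of 20%, which *Pard6b* passed most narrowly at 24.5%. The low level bears on how the 2 kinases can be read: 13.9% of loci with a mean from 1 to under 5 FPKM were at least 20% lower, against 3.33% of loci from 20 to under 50 FPKM, where *Prkci* lies. *Prkci* made up 90.9% of the summed kinase level in control and 90.1% in mutant lungs, so the sum followed it, with 35.3 FPKM in controls and 26.4 FPKM in mutants. *Prkcz* is also known for a short brain form, and the 12 neural markers summed to 26.6 FPKM in controls and 17.4 FPKM in mutants. None (0) of these markers was listed at 0, 8 of the 9 past the filter were lower, and their part in the *Prkcz* value was not tested.

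PAR6 proteins are adaptors that bind the kinase and active CDC42. *Pard6g* (XLOC_010098, chromosome 18, 80046895 to 80119640) was the main paralogue, with 25.95 FPKM in controls and 22.2 FPKM in mutants, a log2 ratio of -0.22. *Pard6b* (XLOC_012096, chromosome 2, 168080976 to 168101203) had 6.49 and 4.90 FPKM, a log2 ratio of -0.40. *Pard6a* (XLOC_021144, chromosome 8, 105701154 to 105703579) had 4.42 and 4.02 FPKM, a log2 ratio of -0.13. The paralogue with the lowest ratio was thus not the most abundant. *Pard6b* held 17.6% of the summed *Pard6* level in control and 15.7% in mutant lungs, while *Pard6g* held 70.4% and 71.3%. The summed level was 36.9 FPKM in controls and 31.1 FPKM in mutants.

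*Pard3* (XLOC_021284, chromosome 8, 127063799 to 127612286) encodes the scaffold that recruits PAR6 and the kinase to cell junctions. Its level was 20.2 FPKM in controls and 19.1 FPKM in mutants, a log2 ratio of -0.07, and 32.0% of loci had a ratio as low or lower. The kinase transcripts therefore stood lower against those of the scaffolds in mutant lungs. The summed kinase level was 1.75 times that of *Pard3* in control and 1.38 times in mutant lungs, and against the summed *Pard6* level it was 0.958 and 0.847.

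The LGL genes encode WD40-repeat proteins of the basolateral side that the kinase phosphorylates. *Llgl1* (XLOC_002728, chromosome 11, 60699690 to 60727221) had the highest level of the 10 genes, 45.2 FPKM in controls and 42.0 FPKM in mutants, a log2 ratio of -0.11. Its deposited locus reaches 13035 bases past the gene over *Flii* on the opposite strand. *Flii* shares 64 exonic bases with *Llgl1* and had 23.6 and 22.7 FPKM. *Llgl2* (XLOC_003252, chromosome 11, 115824017 to 115855780), the paralogue known from epithelia, had 7.69 FPKM in controls and 5.58 FPKM in mutants, 1.38-fold lower, with a log2 ratio of -0.46. *Llgl2* made up 14.5% of the summed *Llgl* level in control and 11.7% in mutant lungs. The ratio of *Llgl1* to *Llgl2* was 5.88 in control and 7.53 in mutant lungs.

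**Figure D2:**
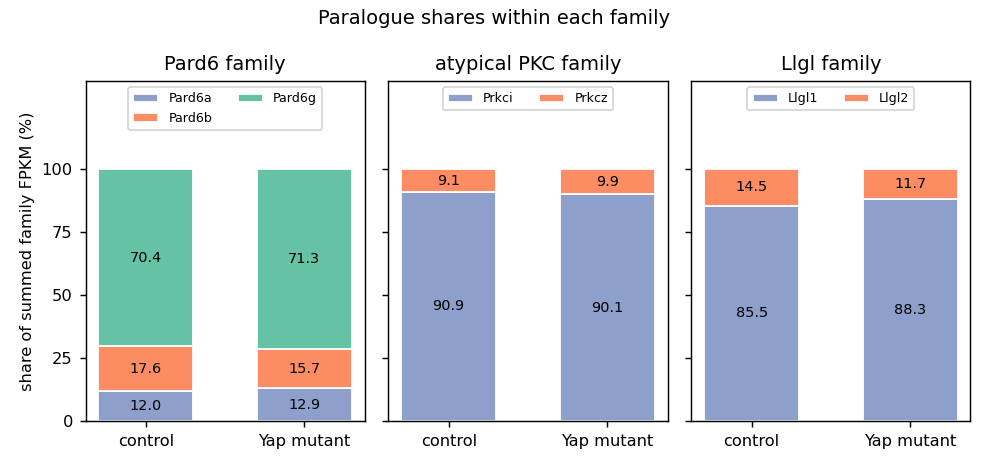
Share of each paralogue in the summed FPKM of its family, in percent, for control and *Yap* mutant lungs, with 1 pooled value per group. *Llgl2* holds 14.5% in control and 11.7% in mutant lungs and *Pard6b* 17.6% and 15.7%, while *Prkci* stays near 90% of the kinase sum in both.

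By level the 10 genes kept 1 order in both groups, from *Llgl1* at the top through *Prkci*, *Pard6g*, *Pard3*, *Mpp5*, *Crb3*, *Llgl2*, *Pard6b* and *Pard6a* to *Prkcz*. In control lungs 15.5% of loci past the filter were at or above the level of *Llgl1*, and 82.5% were at or above that of *Prkcz*. Which neighbours in this order differ beyond the spread between libraries cannot be said from pooled values. The fold did not follow the level: the 4 genes past the bound included the second highest, *Prkci*, and 3 from the lower part of the order.

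**Figure D3:**
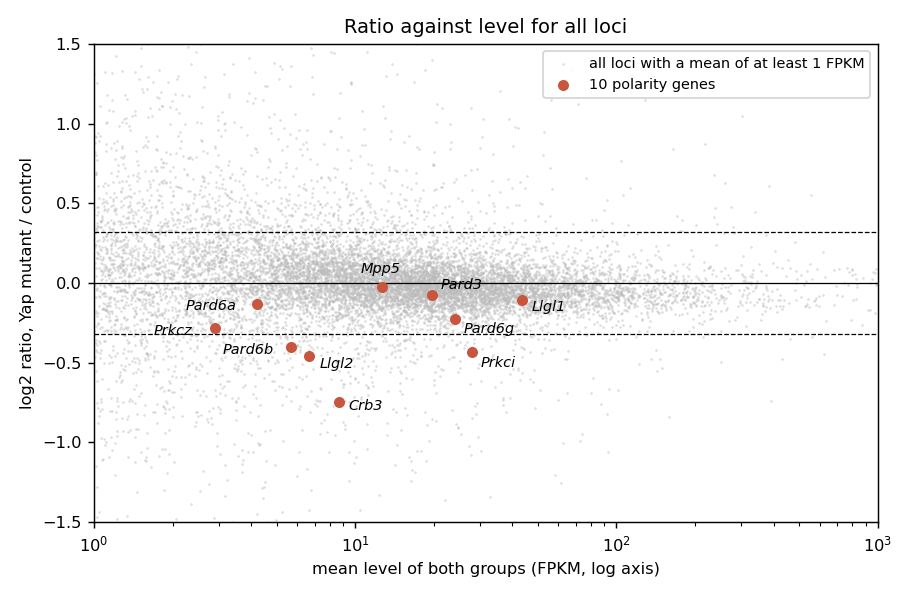
Log2 ratio of *Yap* mutant over control against the mean level in FPKM (log axis) for loci averaging 1 FPKM or more (grey) and the 10 polarity genes (red), with dashed lines at the bound of 0.32 in both directions. Grey points spread more widely at low levels, *Crb3*, *Llgl2*, *Prkci* and *Pard6b* lie below the lower dashed line, and 303 of 12716 loci fall outside the axes.

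The promoters of *Prkci*, *Crb3* and *Pard6b* are shown because these are the genes past the bound for which a promoter sequence was at hand. YAP does not bind DNA itself and works through TEAD factors, whose core motif reads CATTCC on either strand. SNAI and ZEB repressors of epithelial genes bind the E-box, which reads CAGGTG on either strand. The sequences are the 250 bases before the annotated start, from RefSeq on GRCm38.p6, all on the plus strand, with both motifs in capitals.
*Prkci* (chr3:30995521-30995770): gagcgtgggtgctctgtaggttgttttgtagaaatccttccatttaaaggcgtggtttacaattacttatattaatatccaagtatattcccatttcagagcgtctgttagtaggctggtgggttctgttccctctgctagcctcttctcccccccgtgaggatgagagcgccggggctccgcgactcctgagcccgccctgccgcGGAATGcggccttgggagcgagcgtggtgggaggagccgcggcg
*Crb3* (chr17:57061951-57062200): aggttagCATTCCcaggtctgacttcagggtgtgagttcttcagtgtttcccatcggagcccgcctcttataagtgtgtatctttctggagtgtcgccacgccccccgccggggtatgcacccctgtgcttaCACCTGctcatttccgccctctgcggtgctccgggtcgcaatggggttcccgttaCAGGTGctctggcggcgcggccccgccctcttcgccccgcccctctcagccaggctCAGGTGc
*Pard6b* (chr2:168080754-168081003): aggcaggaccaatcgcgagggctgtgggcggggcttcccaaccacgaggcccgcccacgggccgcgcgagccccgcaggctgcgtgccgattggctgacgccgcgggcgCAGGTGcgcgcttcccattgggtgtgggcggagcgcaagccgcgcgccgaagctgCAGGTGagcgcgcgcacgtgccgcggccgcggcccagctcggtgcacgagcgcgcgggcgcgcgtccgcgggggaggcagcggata

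In the *Prkci* window the capitals mark a TEAD core on the minus strand, from 44 to 39 bases before the start. In the *Crb3* window shown they mark a TEAD core from 243 to 238 bases before the start, followed by 3 E-boxes. A second *Crb3* window, for a start further downstream, began at 57061981, past that core, and held E-boxes and no TEAD core. *Pard6b* had 2 E-boxes and no TEAD core. Both strands were searched in windows from 250 bases before to 50 after the start, and these 2 motifs do not overlap each other in the sequences shown. Promoter windows were at hand for 7 of the 10 genes, 12 windows in all. A TEAD core stood in 2 of the 12 windows (16.7%), those of *Prkci* and *Crb3*, close to the 14.7% of all 32851 promoter windows. By chromatin immunoprecipitation of lungs at a later stage, the paper reports YAP enrichment at the *Prkci* promoter. The primers it lists for that promoter lie in the window shown, and the stretch between them includes the TEAD core. The paper also reports *Prkci* as lower in *Yap* mutant lungs by qPCR and by RNA-Seq of the same study. Binding to either core was not tested here. An E-box stood in 7 of the 12 windows, of 5 genes, against 20.2% of all windows. The GC box GGGCGG stood in 10 of the 12 windows against 35.7% of all, and the grainyhead-like motif AACCGG in 1, of *Pard6a*, against 6.83%. Windows of 1 gene can overlap, so they are not independent. *Pard6g*, *Mpp5* and *Llgl2* were not searched.

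Further genes of polarity were taken from a list of 53, of which 51 had a locus and 47 passed the filter. Of these 47, 32 were lower and 15 were higher in mutant lungs, with a median log2 ratio of -0.06. With equal totals the split was 25 lower to 22 higher and the median -0.02. At least 20% lower were 7 of the 47, and none (0) was at least 25% higher, while with equal totals these counts were 6 and 2. Over all loci the shares were 6.80% lower and 9.63% higher as deposited, and 6.06% and 11.6% with equal totals. At least 1.5-fold lower by the log2 ratio were 3, *Tjp3*, *Lin7a* and *Wwc1*, while *Myo5b*, which encodes a myosin motor of apical recycling, had 1.57 FPKM in controls and 1.04 FPKM in mutants, 1.51-fold lower before 0.1 FPKM was added. *Tjp3*, the gene of the tight junction scaffold ZO-3, had 2.18 FPKM in controls and 0.972 FPKM in mutants. *Lin7a*, which encodes a scaffold that joins PALS1, had 7.12 and 4.23 FPKM. *Wwc1*, which encodes KIBRA, a binding partner of the atypical kinases and an upstream part of the Hippo pathway, had 9.0 and 5.36 FPKM.

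The other 4 genes that were at least 20% lower, named after their values were seen, were *Myo5b*, *Amotl2*, *Mpp7* and *Ocln*, with log2 ratios of -0.55, -0.52, -0.37 and -0.34. The paper counts *Amotl2* among known YAP targets and reports YAP enrichment at its promoter. Some partners of the 10 genes were also looked up. *Scrib*, the basolateral scaffold, had 27.3 FPKM in controls and 24.4 FPKM in mutants, and *Dlg1*, its partner, had 27.8 and 28.5 FPKM. *Cdc42*, the GTPase that PAR6 binds, had 274.5 and 272.6 FPKM. *Patj*, the scaffold that PALS1 holds, had 5.99 and 5.35 FPKM. *Lin7c*, the most abundant *Lin7* gene, had 31.9 FPKM in both groups. Another Crumbs gene, *Crb2*, went the other way from *Crb3*, with 2.73 FPKM in controls and 3.40 FPKM in mutants and a log2 ratio of 0.31. Its mean was low, at 3.07 FPKM. The *Crb2* locus is long, from 37776249 to 38287384 on chromosome 2, and other genes under it were not looked up. The last 6 genes were also named after their values were seen.

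RNA came from whole lungs, in which fewer epithelial cells and less RNA per epithelial cell cannot be told apart. The epithelium list had a median log2 ratio of -0.53, with 26 of 31 loci past the filter lower and 5 higher. Its 5 most abundant genes by the mean of both groups, *Cldn6*, *Spint2*, *Epcam*, *Nkx2-1* and *Sftpc*, had log2 ratios of -0.60, -0.08, -0.43, -0.78 and 0.97. *Sftpc* is among them through its level in mutants, and by the control level the fifth gene is *Krt8*, at -0.63. *Crb3* was the 1 polarity gene with a ratio below the median of that list, by 0.22 on the log2 scale. *Llgl2*, *Prkci* and *Pard6b* lay above it by 0.07, 0.09 and 0.13, and *Mpp5* by 0.50. With the list median subtracted, 9 of the 10 genes thus had a positive log2 ratio. This count depends on the marker used, since ratios in the list ran from -1.69 to 1.10. *Cdh1*, a marker of the list named after its value was seen, had a log2 ratio of -0.20. *Crb3*, *Llgl2*, *Prkci*, *Pard6b*, *Prkcz* and *Pard6g* lay below *Cdh1*, and *Pard6a*, *Llgl1*, *Pard3* and *Mpp5* lay above it. Which marker best follows the amount of epithelium was not tested. The share of each gene's RNA that comes from the epithelium was not tested.

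The lists of mesenchyme, endothelium, mesothelium, erythroid cells and heart muscle had medians above 0. Their median log2 ratios were 0.12 for 21 mesenchyme loci, 0.15 for 12 endothelium loci and 0.31 for 4 mesothelium loci. The medians were 0.15 for 8 erythroid loci and 3.26 for 7 heart muscle loci, and that of 10 reference genes was -0.01. In the mesenchyme list 5 loci were lower, among them *Foxf1*, with 83.5 FPKM in controls and 41.6 FPKM in mutants, and *Tcf21*. That list holds 20 genes at 21 loci, since *Tcf21* is entered again at the same coordinates and is counted again among the 5. The 9 neural loci past the filter had a median of -0.61. No list median here comes with a test, and none of these lists was shown to differ from the polarity genes.

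**Figure D4:**
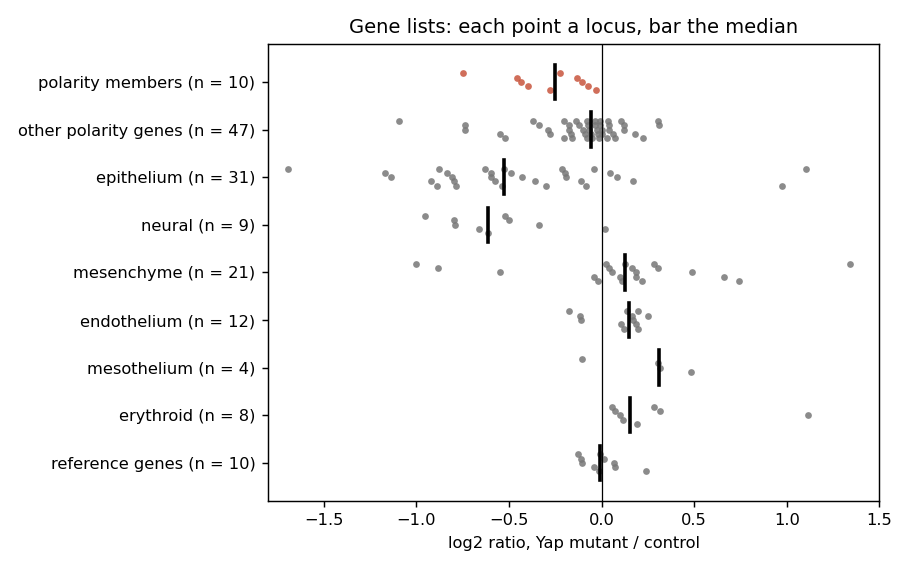
Log2 ratio of *Yap* mutant over control for each locus averaging 1 FPKM or more in the polarity genes (red) and in lists of other genes (grey), with black bars at the medians. The polarity genes lie between -0.75 and -0.03 with a median of -0.25, between the epithelium list at -0.53 and the other polarity genes at -0.06, and the heart muscle list lies beyond the axis.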

How the data were processed

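RNA from whole lungs at 12.5 *dpc* was sequenced as stranded paired-end libraries, 3 per genotype. The submitters' processing notes name TopHat, Cuffdiff and mm10, without versions. The authors' deposited tables are 2, of all 24402 loci and of 2395 loci listed as changed, each with 1 FPKM value per genotype. The unit was taken from the Cuffdiff layout. The authors' fold changes and p-values in these tables were not used. Where both tables held a locus, 2370 of 2395 agreed within 1%. No polarity gene held by both differed, but how many of the 10 both hold was not counted. Depth per library is unknown.

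Ratios were computed as log2((mutant + 0.1)/(control + 0.1)). Lists and medians used loci averaging 1 FPKM or more. Coordinates have 1 added to the deposited start, since 9313 starts lay 1 below the RefSeq start on GRCm38 and 618 at it. Overlapping genes are from GENCODE M21, of the same build. Genes named were the 10 polarity genes, *Yap1*, other polarity genes past 1.5-fold, and the 5 most abundant epithelium genes. Others are marked in the text or are given for tissue, sex or overlap. The genes and lists were chosen with earlier results of these data known. Level ranges were set after the values were seen. The code for ratios and motif searches was run on made-up inputs with known answers, which checks the code and not the results. Alternatives tried were other pseudocounts, filters, folds, scalings, the second table and leaving out genes. Python 3.11.15, numpy 2.4.6, pandas 2.3.3 and matplotlib 3.10.9 were used.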

Additional observations from a re-analysis of the deposited data

How the results depend on the processing

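Of 107 values recomputed under another setting, at least 22 could not change. Some of the rest also had to follow from the main values, such as the count of genes higher past 1.5-fold. The second table held no differing value for any of the 10 genes, and a locus absent from it kept its value. How many of the 10 genes it holds was not counted. All 10 pass the filter, so lifting it could not change them. Of the other 85, 74 stayed within bounds set here, because no spread between libraries is known. The bounds were 0.1 on the log2 scale, 2 percentage points for a share and 1.5 times for a count. Several settings could hardly pass them, so 74 of 85 is no measure of robustness. Centring subtracted a median of -0.01, and equal totals moved the median of all loci from -0.01 to 0.04. The 74 include *Mpp5*, whose log2 ratio changed sign with equal totals. Requiring a 1.5-fold difference left 1 of the 4 genes, *Crb3*. Relative to the epithelium list, the log2 ratios turned to 0.0714 for *Llgl2*, 0.0927 for *Prkci* and 0.13 for *Pard6b*, and became -0.22 for *Crb3*, 0.25 for *Prkcz*, 0.30 for *Pard6g*, 0.39 for *Pard6a*, 0.42 for *Llgl1*, 0.45 for *Pard3* and 0.50 for *Mpp5*, since a median of -0.53 is subtracted. Under the other settings the median of the 10 genes lay between -0.31 and -0.21. Without *Crb3* and *Llgl1*, whose loci reach over a neighbouring gene, a choice made after seeing the data, 3 genes were at least 20% lower. That number had to follow, since *Crb3* is 1 of the 4 genes and *Llgl1* is not. Leaving out replicates was not run because values per library were not used. No paired analysis was possible because each genotype has 1 pooled value. Depth limits could not be computed from FPKM.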

Other observations

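Genes of apical transport and of the apical surface, 19 chosen after values of these data were seen, were looked up beside the polarity genes. Of the 14 with a mean of at least 1 FPKM, 11 had a lower and 3 a higher value in the mutants. Their median log2 ratio was -0.27, and 5 were at least 20% lower and 1 was at least 25% higher, beside 6.80% and 9.63% of all loci. Of the 14, 8 had a mean from 1 to under 5 FPKM, where 13.9% of loci were at least 20% lower, and *Myo5b*, *Rab11fip1*, *Podxl* and *Slc9a3r1* also stand in the list of other polarity genes and *Rab25* in the epithelium list. *Mal2*, which encodes a membrane protein of transport to the apical surface, had 21.6 FPKM in controls and 0.829 FPKM in mutant lungs. *Muc1*, an apical mucin gene, had 2.04 and 0.587 FPKM, and *Prom1*, which encodes a protein of apical membrane protrusions, had 17.2 and 9.31 FPKM. *Cgn*, the gene of the tight junction protein cingulin, had 4.12 and 2.98 FPKM. *Vamp8*, which encodes a vesicle fusion protein, had 40.4 and 42.3 FPKM, and *Sytl2* had 2.23 and 2.98 FPKM. The list was chosen with values in view, and no test was made.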
